A study of Arabidopsis thaliana with 16 samples.

Results

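The genes described here regulate and carry out the first stages of aliphatic glucosinolate synthesis in Arabidopsis thaliana. They are 10 of the 32548 genes in the deposited expression table, chosen by identifier and not by their values, and all 10 were found there. They comprise 3 MYB transcription factors (MYB28, AT5G61420; MYB29, AT5G07690; MYB76, AT5G07700), 3 enzymes and 1 transporter of methionine chain elongation (BCAT4, AT3G19710; MAM1, AT5G23010; MAM3, AT5G23020; BAT5, AT4G12030), and 3 cytochromes P450 that begin the core structure (CYP79F1, AT1G16410; CYP79F2, AT1G16400; CYP83A1, AT4G13770). The reference annotation lists MAM3 under the name IMS2.

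RNA was sequenced from whole seedlings of the Col-0 wild type and of 7 mutants in genes linked to the RPD3 class of histone deacetylases, which strip acetyl groups off histones. Each of the 8 genotypes gave 2 libraries, 16 in all. By the labels the homozygous mutants were hda6; hda19; sant1234, which lacks SANT1, SANT2, SANT3 and SANT4; mbd124, which lacks MBD1, MBD2 and MBD4; esant12, which lacks ESANT1 and ESANT2; arid14, which lacks ARID1 and ARID4; and rxt3. All seedlings were 14 days old, grown on Murashige and Skoog plates with a 16 h day at 23 °C and an 8 h night at 22 °C, and no treatment is named. The labels give no allele or line for any mutant. Nor do they tell if paired libraries were grown as separate pools, so p-values measure only the spread between these samples, which may be technical.

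Aliphatic glucosinolates are sulfur-rich defence compounds of the cabbage family that plants make from methionine. The methionine side chain is first lengthened: its amino group is removed, the keto acid enters the chloroplast, and MAM synthases begin each round of elongation. The elongated amino acids are then converted by CYP79F enzymes to aldoximes and by CYP83A1 to activated intermediates that receive sulfur, glucose and sulfate. MYB28, MYB29 and MYB76 activate genes of this route, and they act together with basic helix-loop-helix factors of the MYC family.

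Recovered read totals ran from 19259579 to 19522197 per library. As a check of the labels, HDA19 stood at 0.136% of its wild-type level in hda19, MBD1 at 0.469%, MBD2 at 37.6% and MBD4 at 6.23% in mbd124, ARID1 at 49.7% in arid14, and HDC1, the Arabidopsis counterpart of yeast Rxt3, at 29.6% in rxt3. HDA6 stood at 113% of wild type in hda6, so transcript level does not check that label. The SANT and ESANT genes and ARID4 were not part of this check. The labels sant1234 and esant12 were thus left unchecked, and arid14 was checked by ARID1 alone. All 5 shoot markers and all 7 root markers had values above 0 in every genotype. Among the shoot markers, LHCA1 and LHCB4.1 were called higher than wild type in all 7 mutants by limma (115% to 165% of wild type), LHCB2.1 was called higher in sant1234, mbd124 and esant12, and RBCS2B lower in esant12 and arid14 (82% and 80.7%). RBCS1A, the largest part of their sum, was not called in any mutant. The summed shoot markers ran from 404915 to 492550 normalised reads per library and the summed root markers from 1961 to 3477, highest in rxt3. Summed seed storage and oleosin markers differed within genotypes, with 7.64 and 239 in the 2 rxt3 libraries and 0.738 and 69.8 in those of hda19. Of the 5 seed markers, SESA3 and CRC were at 0 in both wild-type libraries, and summed flower markers stood at 53.0 and 55.7 there.

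The 300 bases before the annotated start of each gene were read from the TAIR10.1 RefSeq genome, 5′ to 3′ on the gene's strand. Of the 3 pairs of neighbouring gene copies whose ratios are given further on, the regulators MYB29 and MYB76 and the core enzymes CYP79F1 and CYP79F2 are shown, together with CYP83A1, whose level followed that of MYB29 and CYP79F1. Capitals mark CACGTG, the core bound by MYC-type factors, and ACCNACC, an AC element bound by some plant MYB factors, on either strand; windows without capitals held neither.
MYB29 (chr5:2446369-2446668, plus strand): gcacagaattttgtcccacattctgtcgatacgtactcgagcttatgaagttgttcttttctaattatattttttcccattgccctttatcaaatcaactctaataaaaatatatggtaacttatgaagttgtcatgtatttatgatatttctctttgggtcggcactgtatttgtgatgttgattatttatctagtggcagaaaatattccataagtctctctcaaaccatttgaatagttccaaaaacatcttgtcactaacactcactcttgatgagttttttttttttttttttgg
MYB76 (chr5:2449727-2450026, plus strand): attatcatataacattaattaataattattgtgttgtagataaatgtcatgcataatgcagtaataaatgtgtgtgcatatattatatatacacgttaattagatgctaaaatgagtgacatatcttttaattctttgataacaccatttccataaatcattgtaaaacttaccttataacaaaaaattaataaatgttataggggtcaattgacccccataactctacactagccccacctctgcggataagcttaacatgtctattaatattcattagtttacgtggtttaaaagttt
CYP79F1 (chr1:5608382-5608681, plus strand): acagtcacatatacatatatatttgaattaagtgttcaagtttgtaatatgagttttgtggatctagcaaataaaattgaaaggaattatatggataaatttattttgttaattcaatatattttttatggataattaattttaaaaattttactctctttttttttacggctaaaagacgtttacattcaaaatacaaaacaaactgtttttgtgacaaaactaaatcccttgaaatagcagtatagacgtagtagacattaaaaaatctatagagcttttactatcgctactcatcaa
CYP79F2 (chr1:5604771-5605043, plus strand): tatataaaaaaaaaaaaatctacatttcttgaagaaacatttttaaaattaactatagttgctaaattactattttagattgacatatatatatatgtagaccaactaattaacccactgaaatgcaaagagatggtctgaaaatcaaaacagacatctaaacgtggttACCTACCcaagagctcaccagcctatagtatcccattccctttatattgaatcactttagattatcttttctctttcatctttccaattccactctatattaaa
CYP83A1 (chr4:7992430-7992729, minus strand): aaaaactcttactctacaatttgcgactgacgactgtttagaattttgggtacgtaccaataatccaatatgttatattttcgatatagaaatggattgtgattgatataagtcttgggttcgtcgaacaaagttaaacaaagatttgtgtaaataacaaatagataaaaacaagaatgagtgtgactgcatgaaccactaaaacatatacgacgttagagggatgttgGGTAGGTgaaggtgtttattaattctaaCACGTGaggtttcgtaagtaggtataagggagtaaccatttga
CACGTG was found in 1 of the 10 upstream windows, that of CYP83A1, from 43 to 38 bases before the start. It was found in 7.09% of 27443 upstream windows of the same length, taken before the protein-coding genes of the expression table. ACCNACC was found in 3 of 10, those of BAT5, CYP79F2 and CYP83A1, against 7.08% of all windows. A second AC element, ACCTAAC, was found in none of the 10 and in 2.93% of all. The motifs searched do not overlap one another in these windows. The printed CYP79F2 window has 273 bases, because the bases further from the start lie in a neighbouring gene, AT1G16390. A match here describes the letters and shows no binding.

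Per kilobase of annotated exon, CYP83A1 was the most abundant of the 10 in wild type, at 2204 normalised reads per kb. MAM1 followed at 1819, BCAT4 at 1213, MAM3 at 791 and CYP79F1 at 698. MYB28 stood at 574 per kb, more than MYB29 at 248 and far more than MYB76 at 16.9. BAT5 had 261 and CYP79F2 had 174. These lengths join the exons of all annotated transcripts of a gene. For CYP79F1 that is 3272 bases against a coding length of 1617, so its place in this order depends on the annotation. Unless a length is given, levels below are the deposited normalised read counts of a gene, and log2 fold changes are on the scale of log2(value + 1).

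All 10 genes differed among the 8 genotypes by limma's F-test (Benjamini-Hochberg adjusted p from 3e-07 for CYP79F1 to 0.043 for MAM1), in a table where 71.8% of the 20846 tested genes did. A gene was called in a comparison at an adjusted p under 0.05. Of the 70 tests of a member against wild type, 27 were called, 12 higher and 15 lower. Over all tested genes in the same 7 comparisons, 27.0% of tests were called, 12.5% higher and 14.5% lower. The regulators accounted for 9 of the 15 lower calls and 1 of the 12 higher calls, while the elongation and transport genes gave 7 higher and 2 lower calls and the core genes 4 of each. In 3 of the 27 the log2 difference was at least 1: MYB29 and MYB76 in hda19, and MYB76 in esant12. All 7 comparisons share the same 2 wild-type libraries, so a high or low wild-type value moves all of them together. In whole seedlings, fewer cells of a type and less RNA per cell cannot be told apart.

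**Figure D1:**
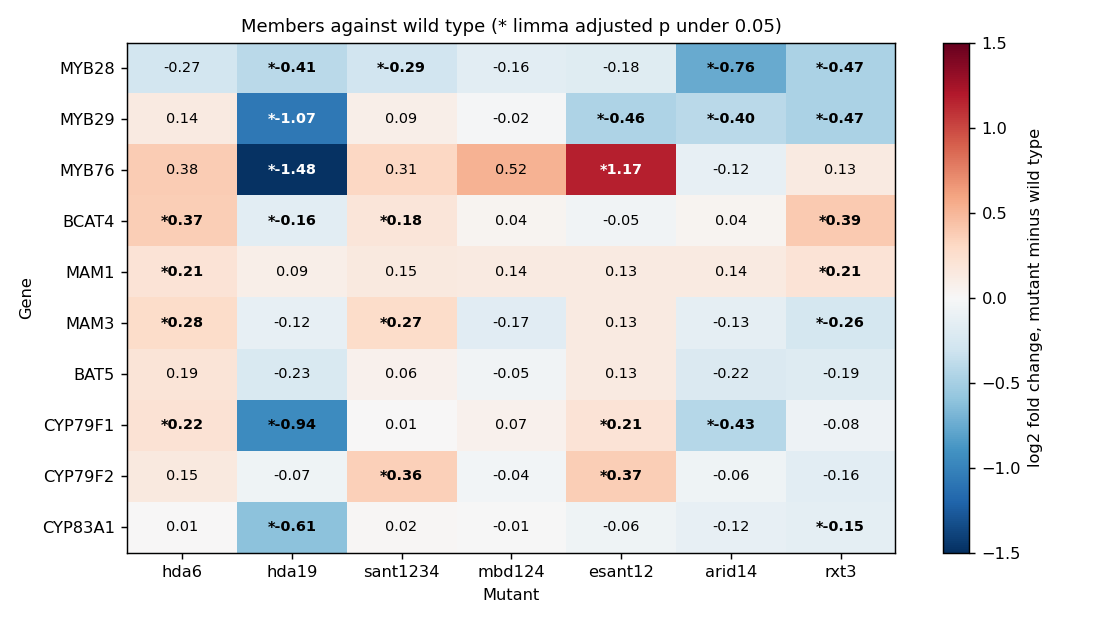
Heat map of log2 fold change against wild type for the 10 genes (rows) in the 7 mutants (columns), with red for higher, blue for lower and an asterisk for a limma adjusted p under 0.05. The MYB rows hold most of the lower calls, the hda19 column runs from -1.48 for MYB76 to 0.09 for MAM1, and the mbd124 column has no call.

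MYB28, the main activator of the route in leaves and seedlings (chromosome 5, 24689069 to 24691187 in TAIR10.1), stood at 1189 and 1081 in wild type, 979 and 900 in hda6, 857 and 846 in hda19, 894 and 960 in sant1234, 1042 and 993 in mbd124, 993 and 1009 in esant12, 701 and 639 in arid14 and 929 and 723 in rxt3. All 14 mutant libraries lay below both wild-type libraries. The gene was called lower in arid14, at 59% of wild type (log2 fold change -0.76, SE 0.09, limma adjusted p = 3.5e-05), in rxt3 at 72.8% (adjusted p = 0.0011), in hda19 at 75% (adjusted p = 0.0047) and in sant1234 at 81.7% (adjusted p = 0.044). In hda6 it stood at 82.8% of wild type and was not called (95% interval of the log2 fold change from -0.48 to -0.07, adjusted p = 0.051). This difference was called under 4 of 13 alternatives, a pseudocount of 5, a filter at 50, a fit of these 2 genotypes and a replicate block (adjusted p from 0.03 to 0.049). In mbd124 and esant12 its means were 89.6% and 88.2% of wild type and were not called (adjusted p = 0.34 and 0.19). MYB28 was also lower in arid14 than in each of the other 6 mutants, the smallest difference being that from rxt3 (log2 difference -0.29, adjusted p = 0.023).

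MYB29, a second activator that lies beside MYB76 (chromosome 5, 2446669 to 2448584), stood at 476 and 382 in wild type, 504 and 439 in hda6, 218 and 188 in hda19, 444 and 463 in sant1234, 430 and 411 in mbd124, 303 and 317 in esant12, 335 and 311 in arid14 and 327 and 289 in rxt3. Both hda19 libraries were the lowest of the 16, and those of esant12, arid14 and rxt3 lay between them and wild type. The gene was called lower in hda19, at 47.4% of wild type (log2 fold change -1.07, SE 0.11, limma adjusted p = 1.4e-05). In esant12 it was at 72.2% (adjusted p = 0.0077), in rxt3 at 71.8% (adjusted p = 0.0032) and in arid14 at 75.2% (adjusted p = 0.013). MYB29 in hda6, sant1234 and mbd124 overlapped wild type and was not called. It was lower in hda19 than in each of the other 6 mutants, the smallest difference being that from rxt3 (log2 difference -0.60, adjusted p = 0.0013).

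MYB76, the third of these activators and the least abundant (chromosome 5, 2450027 to 2451807), stood at 24.9 and 27 in wild type, 41.6 and 27.9 in hda6, 6.97 and 10.7 in hda19, 29.9 and 34.9 in sant1234, 29 and 48.7 in mbd124, 67.2 and 52.9 in esant12, 25.6 and 21.9 in arid14 and 26.2 and 30.6 in rxt3. These values rest on few reads, 7 and 11 in hda19, 25 and 27 in wild type and 65 and 52 in esant12. The hda19 libraries were the lowest and those of esant12 the highest of the 16, and neither overlapped another genotype. MYB76 was called lower in hda19, at 34% of wild type (log2 fold change -1.48, SE 0.29, limma adjusted p = 0.0016), and higher in esant12, at 232% (log2 fold change 1.17, SE 0.29, adjusted p = 0.0085). The other 5 mutants had means from 91.6% to 150% of wild type and were not called, with wide intervals (in mbd124 from -0.10 to 1.14 on the log2 scale).

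Several regulator calls were lost when 1 library was left out, which also widens the error of the difference. Without wild-type replicate 1, the MYB28 call was lost in hda19 (adjusted p = 0.051) and in sant1234 (0.24), where leaving out any of the other 3 libraries also lost it (0.061 to 0.22). The sant1234 call was lost with no filter (0.073) and by DESeq2 (0.066) too. The MYB29 call was lost without wild-type replicate 1 in esant12 (0.1), in arid14 (0.17), where the log2 difference shrank from -0.40 to -0.24, and in rxt3 (0.055). It was also lost without esant12 replicate 1 (0.056) and arid14 replicate 2 (0.088), and the MYB76 call in esant12 without wild-type replicate 1 (0.052) or esant12 replicate 1 (0.077). The arid14 and rxt3 calls of MYB28 and the hda19 calls of MYB29 and MYB76 were kept under all 13 alternatives tried, which do not include a minimum fold change. Of the 13, the rescaling by median-of-ratios factors called as many genes in every comparison as the main fit and added no check. Except that by DESeq2, these p-values are limma's.

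**Figure D2:**
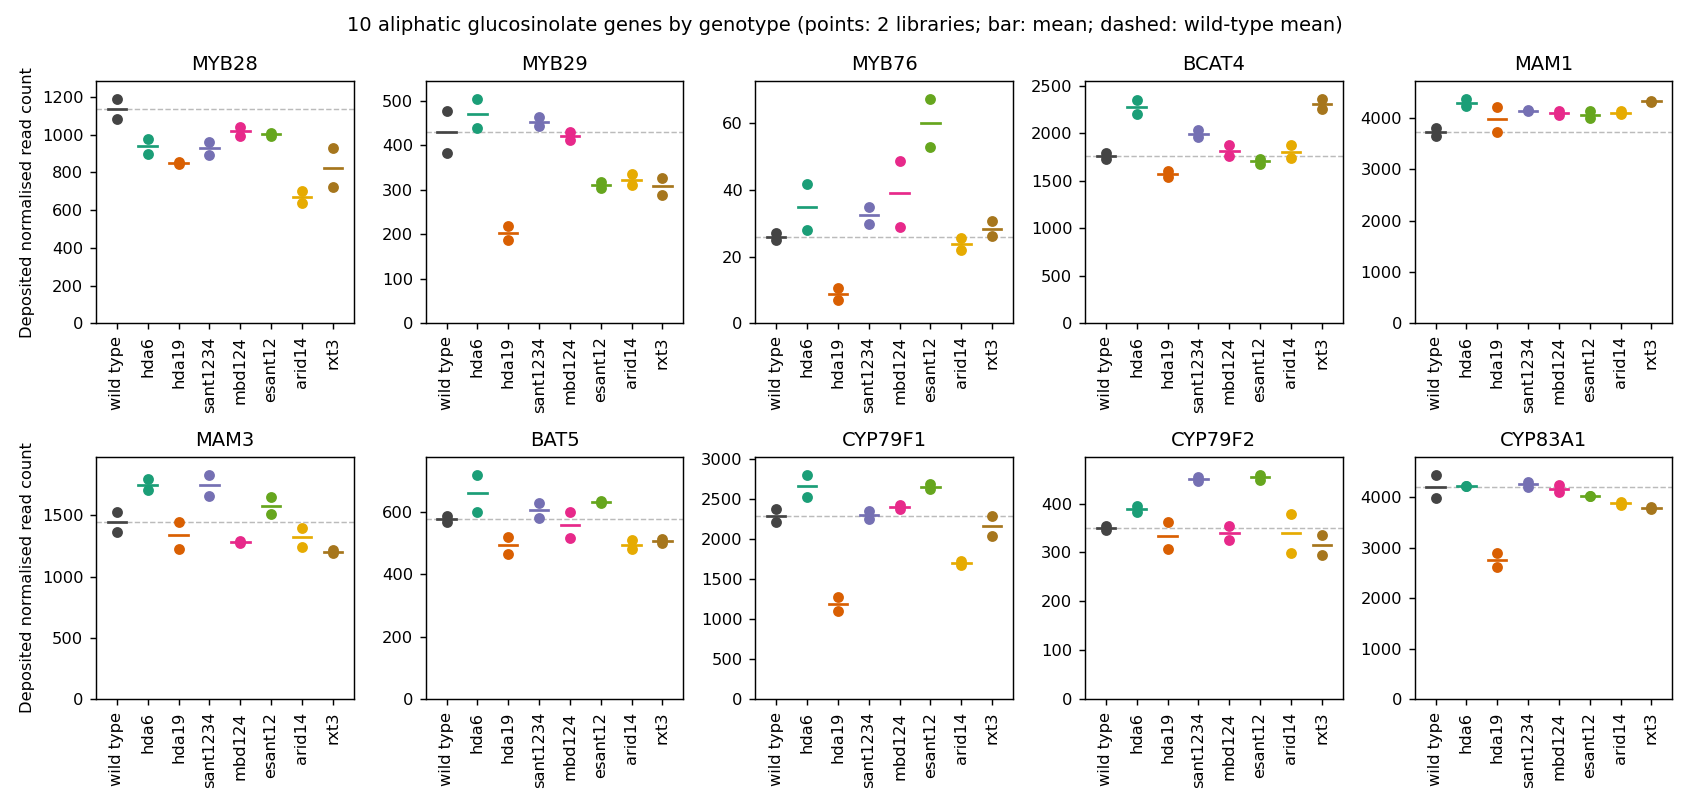
Deposited normalised read counts (vertical axes from 0, one panel per gene) for the 10 genes in the 8 genotypes. Points are the 2 libraries of a genotype, short bars their mean and the dashed line the wild-type mean. In hda19, MYB29, MYB76, CYP79F1 and CYP83A1 lie below every other genotype, while MAM1 ranges only from 3660 to 4374 over all 16 libraries.

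BCAT4, the aminotransferase that removes the amino group of methionine (chromosome 3, 6846969 to 6849582), stood at 1789 and 1732 in wild type, 2204 and 2345 in hda6, 1598 and 1543 in hda19, 1956 and 2034 in sant1234, 1871 and 1761 in mbd124, 1671 and 1733 in esant12, 1874 and 1737 in arid14 and 2252 and 2359 in rxt3. Libraries of hda6, rxt3 and sant1234 lay above both wild-type libraries, and those of hda19 lay below them. It was called higher in rxt3, at 131% of wild type (log2 fold change 0.39, SE 0.06, limma adjusted p = 6.2e-05), in hda6 at 129% (adjusted p = 0.00031) and in sant1234 at 113% (adjusted p = 0.033), and lower in hda19 at 89.2% (adjusted p = 0.036). Of its exon bases, 21.2% overlap AT3G19700 on the opposite strand, and since the strand setting of the counting is not stated, reads there cannot be told apart.

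MAM1, the synthase that starts early elongation rounds (chromosome 5, 7703041 to 7706973), stood at 3660 and 3803 in wild type, 4374 and 4229 in hda6, 4218 and 3732 in hda19, 4155 and 4136 in sant1234, 4132 and 4064 in mbd124, 4147 and 3995 in esant12, 4138 and 4075 in arid14 and 4322 and 4333 in rxt3. Its wild-type mean of 3731 was the lowest of the 8 genotypes, and the libraries of all mutants except hda19 lay above both wild-type libraries. The gene was called higher in hda6, at 115% (log2 fold change 0.21, SE 0.05, limma adjusted p = 0.013), and in rxt3, at 116% (adjusted p = 0.0045). In the other 5 mutants it stood at 107% to 111% of wild type without a call.

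MAM3, the synthase that also makes the long-chain forms (chromosome 5, 7718118 to 7721866), stood at 1529 and 1363 in wild type, 1702 and 1795 in hda6, 1226 and 1443 in hda19, 1654 and 1831 in sant1234, 1276 and 1288 in mbd124, 1514 and 1645 in esant12, 1400 and 1243 in arid14 and 1217 and 1191 in rxt3. The hda6 and sant1234 libraries lay above wild type and those of rxt3 and mbd124 below it. It was called higher in hda6 and in sant1234, both at 121% (limma adjusted p = 0.03 and 0.037), and lower in rxt3, at 83.3% (log2 fold change -0.26, SE 0.08, adjusted p = 0.02). In rxt3 the neighbouring genes MAM1 and MAM3 were called in opposite directions.

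BAT5, a transporter of keto acids into the chloroplast (chromosome 4, 7210807 to 7213376), stood at 568 and 586 in wild type, 718 and 600 in hda6, 465 and 520 in hda19, 580 and 628 in sant1234, 598 and 517 in mbd124, 629 and 635 in esant12, 480 and 508 in arid14 and 512 and 500 in rxt3. No mutant was called against wild type, by limma, edgeR or DESeq2. At an unadjusted p under 0.05, limma placed it lower in hda19 (85.3% of wild type, adjusted p = 0.071) and in arid14 (85.6%, adjusted p = 0.075), where the libraries did not overlap those of wild type.

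Among these calls, BCAT4 in hda6 and rxt3 and MAM1 in rxt3 were kept under all 13 alternatives. The sant1234 and hda19 calls of BCAT4 were lost without any 1 of the 4 libraries compared (limma adjusted p from 0.073 to 0.19 and from 0.057 to 0.18). With all libraries present, the hda19 call was also lost in a fit of the 2 genotypes (0.085), by edgeR (0.062) and by DESeq2 (0.13), and the sant1234 call by DESeq2 (0.086). That of MAM1 in hda6 was lost without wild-type replicate 1 (0.096) or hda6 replicate 1 (0.088). For MAM3, the hda6 call was lost without wild-type replicate 2 (0.22) or either hda6 library (0.057 and 0.17), the sant1234 call without wild-type replicate 2 or sant1234 replicate 2 (0.25 each) or with no filter (0.063), and the rxt3 call without wild-type replicate 1 (0.17) or either rxt3 library (0.056 and 0.083).

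CYP79F1, which converts elongated methionines to aldoximes (chromosome 1, 5608682 to 5612064), stood at 2365 and 2204 in wild type, 2799 and 2515 in hda6, 1276 and 1104 in hda19, 2344 and 2245 in sant1234, 2423 and 2375 in mbd124, 2678 and 2622 in esant12, 1720 and 1673 in arid14 and 2278 and 2037 in rxt3. Both hda19 libraries were the lowest of the 16 and both arid14 libraries came next, with no overlap. CYP79F1 was called lower in hda19, at 52.1% of wild type (log2 fold change -0.94, SE 0.07, limma adjusted p = 1.5e-06), and in arid14, at 74.3% (log2 fold change -0.43, SE 0.07, adjusted p = 5e-04). It was called higher in hda6 and esant12, each at 116% (adjusted p = 0.046 and 0.045). The level in hda19 was also lower than in arid14 (adjusted p = 0.00019).

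CYP79F2, the neighbouring copy that acts on long-chain substrates (chromosome 1, 5605044 to 5607498), stood at 346 and 355 in wild type, 395 and 382 in hda6, 306 and 362 in hda19, 455 and 447 in sant1234, 326 and 355 in mbd124, 459 and 448 in esant12, 379 and 299 in arid14 and 295 and 335 in rxt3. Libraries of sant1234 and esant12 lay above all those of the other genotypes. It was called higher in these 2 mutants, each at 129% of wild type (log2 fold change 0.36 and 0.37, SE 0.11, limma adjusted p = 0.031 and 0.022). In hda19 it stood at 95.3% of wild type (95% interval of the log2 fold change from -0.31 to 0.16) and in arid14 at 96.7% (from -0.29 to 0.18), neither being called. The 95% intervals of CYP79F1 in the same 2 mutants, from -1.10 to -0.79 and from -0.59 to -0.27, lie below 0.

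CYP83A1, which oxidises the aldoximes (chromosome 4, 7990429 to 7992429), stood at 4443 and 3972 in wild type, 4222 and 4226 in hda6, 2890 and 2622 in hda19, 4206 and 4291 in sant1234, 4232 and 4092 in mbd124, 4017 and 4026 in esant12, 3852 and 3894 in arid14 and 3765 and 3810 in rxt3. The hda19 libraries lay well below the other 14, which ran from 3765 to 4443. The gene was called lower in hda19, at 65.5% of wild type (log2 fold change -0.61, SE 0.06, limma adjusted p = 5.7e-06), and in rxt3, at 90% (log2 fold change -0.15, adjusted p = 0.041). In hda6, sant1234 and mbd124 it stood at 98.9% to 101% of wild type.

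The hda19 calls of CYP79F1 and CYP83A1 and the arid14 call of CYP79F1 were kept under all 13 alternatives. The hda6 call of CYP79F1 was lost without either wild-type library (limma adjusted p = 0.066 and 0.24) or hda6 replicate 1 (0.31), where the log2 difference shrank from 0.22 to 0.14, and also with no filter (0.069) or in a fit of the 2 genotypes (0.053). Its esant12 call, and both calls of CYP79F2, were lost without any 1 of the 4 libraries compared (0.061 to 0.24 for CYP79F1, 0.068 to 0.13 for CYP79F2). The CYP79F1 call in esant12 was also lost with no filter (0.071) and by DESeq2 (0.056), and the CYP79F2 call in sant1234 by DESeq2 (0.064). The rxt3 call of CYP83A1 was lost without wild-type replicate 1 (0.4), where the log2 difference was -0.07, and without either rxt3 library (0.14 and 0.093). With all libraries present it was also lost with no filter (0.055), in a fit of the 2 genotypes (0.099), by edgeR (0.088) and by DESeq2 (0.11).

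Set out by mutant, hda19 had 0 of the 10 genes higher and 6 lower, against 14.0% of all tested genes higher and 16.2% lower, with a median log2 fold change of -0.32 over the 10 and -0.01 over all genes. The 6 were MYB28, MYB29, MYB76, BCAT4, CYP79F1 and CYP83A1. In arid14, 0 were higher and 3 lower (MYB28, MYB29 and CYP79F1; background 15.1% and 17.2%) with a median of -0.13. Root markers summed to 2499 and 3057 in hda19 and 2195 and 2742 in arid14 against 1961 and 2333 in wild type. Of the 7 root markers, 2 were called higher and 1 lower in hda19, and 0 were called in arid14. Shoot markers summed to 412461 and 460433 in hda19 and 414259 and 428111 in arid14 against 404915 and 419947. Flower markers summed to 130 and 149 in hda19 and 100 and 122 in arid14, above wild type. Of the 4 flower markers tested, 1 was called higher in hda19 and 1 in arid14, and 0 were called lower. The part of these shifts in the result was not tested.

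In hda6, 4 genes were higher (BCAT4, MAM1, MAM3 and CYP79F1) and 0 lower, against 11.2% and 12.5% of all tested genes, and the median log2 fold change was 0.20. In sant1234, 3 were higher (BCAT4, MAM3 and CYP79F2) and 1 lower (MYB28; background 8.53% and 11.3%). Between hda6 and sant1234 themselves, 0 of the 10 were called by limma at the adjusted threshold, where 8.23% of all genes were called. At an unadjusted limma p under 0.05 there were 2, BCAT4 and CYP79F1. The share of all genes at that looser threshold was not taken. In hda6 the shoot markers summed to 451077 and 488094 and the root markers to 1968 and 2053, and in sant1234 to 475581 and 477011 and to 2747 and 2966. Flower markers summed to 73.9 and 86.3 in hda6 and to 98.6 and 114 in sant1234. Of the 4 flower markers tested, 1 was called higher in hda6 and 2 in sant1234, and of the 7 root markers 0 and 2. None of these markers was called lower. Their part in the result was not tested.

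In esant12, 3 genes were higher (MYB76, CYP79F1 and CYP79F2) and 1 lower (MYB29; background 11.5% and 14.3%). In rxt3, 2 were higher (BCAT4 and MAM1) and 4 lower (MYB28, MYB29, MAM3 and CYP83A1), in a mutant where 22.3% of all genes were higher and 24.9% lower, shares of all genes that are themselves high. Root markers summed to 3093 and 3477 in rxt3, the highest of the 8 genotypes, and to 2096 in both esant12 libraries. Shoot markers summed to 433641 and 443053 in rxt3 and to 462498 and 476908 in esant12, and flower markers to 135 and 144 in rxt3 and to 58.0 and 63.0 in esant12. In rxt3, 3 of 4 tested flower markers and 3 of 7 root markers were called higher and 0 lower. In esant12, 0 of the 4 flower markers were called higher and 1 lower, and 0 root markers were called. Their part in the result was not tested. In mbd124, 0 genes were called higher and 0 lower by limma, edgeR or DESeq2, where limma called 4.73% of all genes higher and 5.27% lower. Only MAM1 had an unadjusted limma p under 0.05, a threshold at which no share of all genes was taken. The 95% interval of MYB28 in mbd124 ran from -0.36 to 0.05 on the log2 scale.

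The seedlings labelled hda6 and hda19, mutants of different deacetylases of the same class by the labels, were compared with each other. The wild-type means do not enter these differences, but the wild-type libraries do enter the shared estimate of the spread. Of the 10 genes, 7 were higher in hda6 and 0 lower, against 12.7% and 11.1% of all tested genes, with a median log2 difference of 0.47. The largest differences were in MYB76 (log2 difference 1.86, SE 0.29, limma adjusted p = 0.00039), MYB29 (1.21, SE 0.11, adjusted p = 3.9e-06) and CYP79F1 (1.16, SE 0.07, adjusted p = 1.1e-07). CYP83A1 differed by 0.62 (adjusted p = 3.6e-06), BCAT4 by 0.53 (1.3e-05), BAT5 by 0.42 (0.0047) and MAM3 by 0.39 (0.0041). MYB28, MAM1 and CYP79F2 were not called, with intervals from -0.06 to 0.34, from 0.00 to 0.23 and from -0.01 to 0.46. The MAM3 call was lost without hda19 replicate 1 (adjusted p = 0.051) and the BAT5 call without hda6 replicate 1 (0.071), and the other 5 were kept under all 13 alternatives.

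**Figure D3:**
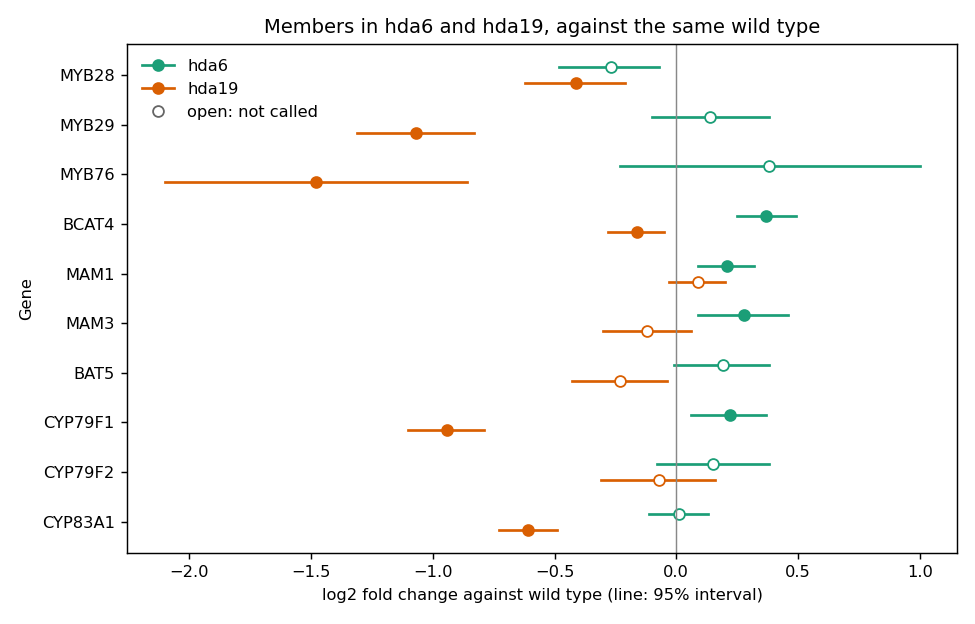
Log2 fold change against wild type (horizontal axis, with 95% intervals) of the 10 genes in hda6 (green) and hda19 (orange), filled where the limma adjusted p is under 0.05. Both share the wild-type libraries, and the hda19 points of MYB29, MYB76, CYP79F1 and CYP83A1 stand from -1.48 to -0.61, to the left of their hda6 counterparts.

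The hda19 levels were also compared with each of the remaining mutants. Against sant1234, 8 of the 10 genes were lower in hda19 and 0 higher, where 20.2% of all tested genes were called. Against esant12, 7 were lower and 0 higher (34.7% of all genes), and against mbd124 and rxt3, 5 were lower and 0 higher (20.0% and 31.5%). Against arid14, 5 were lower and 1, MYB28, was higher (26.6%). MYB29, MYB76, CYP79F1 and CYP83A1 were lower in hda19 in each of these 5 comparisons.

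Among the mutants other than hda19, 6 of the 10 genes were higher in hda6 than in arid14 and 0 lower, where 24.9% of all tested genes were called. Likewise 6 were higher in hda6 than in rxt3 and 0 lower, where 44.0% of all genes were called. Between sant1234 and rxt3, 5 were higher in sant1234 and 1, BCAT4, was lower (37.9% of all genes). Between esant12 and arid14, 6 were higher in esant12 and 0 lower (30.5% of all genes), and these included MYB28, MYB76, CYP79F1 and CYP79F2.

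When the 8 genotype means of each gene were put in order, 63 of the 70 pairs of neighbours in that order were not called apart by limma, and 7 were. The 7 were MYB28 in arid14 below rxt3, MYB29 in hda19 below rxt3 and in arid14 below mbd124, MYB76 in hda19 below arid14, CYP79F1 in hda19 below arid14 and in arid14 below rxt3, and CYP83A1 in hda19 below rxt3. The 2 highest genotypes were not called apart for any of the 10 genes. Wild type was highest for MYB28 and lowest for MAM1.

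Of these genes, 3 pairs lie side by side with no gene between, and within a library the ratio of 2 copies does not depend on the scaling between libraries. CYP79F1 and CYP79F2 are 1183 bases apart and 91.9% identical over their aligned coding bases, and they share 1.67% and 2.74% of their exonic windows of 50 bases, so few reads of this length could fall on both. The CYP79F1 to CYP79F2 ratio was 6.21 and 6.84 in wild type, 3.05 and 4.17 in hda19, 5.03 and 5.15 in sant1234, and 4.54 and 5.60 in arid14. In these 3 mutants the ratio lay below both wild-type libraries, with CYP79F1 called lower in hda19 and arid14 and CYP79F2 called higher in sant1234. It also lay lower in esant12, at 5.84 and 5.85, while those of hda6 (6.58 and 7.09), mbd124 (6.70 and 7.43) and rxt3 (6.09 and 7.73) overlapped the wild-type range or lay above it.

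MYB29 and MYB76 are 1442 bases apart, 79.2% identical over aligned coding bases, and share no exonic window. Their ratio was 14.1 and 19.2 in wild type, and lowest in esant12, at 4.50 and 5.99, where MYB29 fell and MYB76 rose. In hda19, where both fell, it was 17.7 and 31.3, a range that overlaps wild type. In rxt3 it lay below both wild-type libraries too, at 9.45 and 12.5. MAM1 and MAM3 are 11144 bases apart and 84.2% identical, and their ratio was 2.39 and 2.79 in wild type and highest in rxt3, at 3.55 and 3.64. It also lay above both wild-type libraries in mbd124 (3.15 and 3.24) and arid14 (2.96 and 3.28). With 2 libraries against 2 these ratios were not tested and are given as descriptions.

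**Figure D4:**
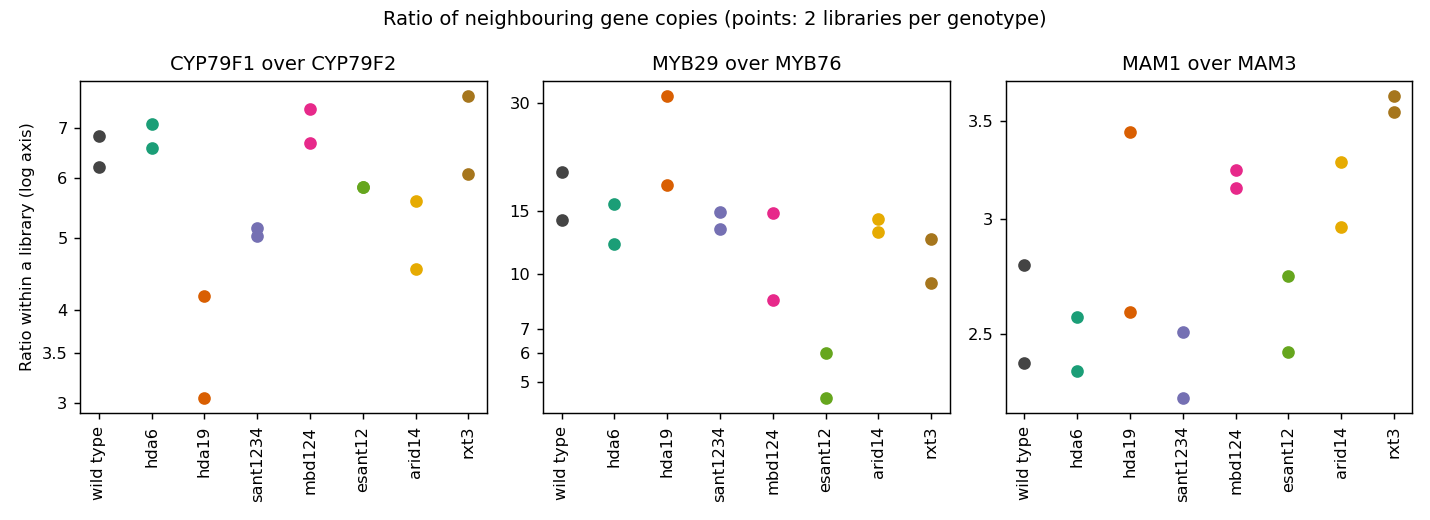
Ratio of neighbouring gene copies within each library (log vertical axes), with 2 points per genotype. The CYP79F1 to CYP79F2 ratio is lowest in hda19 (3.05 and 4.17), the MYB29 to MYB76 ratio in esant12 (4.50 and 5.99), and the MAM1 to MAM3 ratio is highest in rxt3 (3.55 and 3.64).

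Across the 16 libraries, the log2 levels of the genes were compared as a description, since libraries of 1 genotype are not independent points. CYP79F1 followed the mean of the other 9 most closely (Pearson r = 0.91), then CYP83A1 (0.80), MYB29 and BAT5 (0.78 each) and MYB76 (0.75). MYB28 (0.37) and MAM1 (0.15) followed it least. The closest pairs were MYB29 with CYP83A1 (0.91), CYP79F1 with CYP83A1 (0.89), MYB76 with CYP79F1 (0.87) and MAM3 with CYP79F2 (0.81), while MYB28 and MAM1 ran in opposite directions (-0.36). The hda19 libraries were the lowest for MYB29, MYB76, CYP79F1 and CYP83A1, so they weigh on the pairs among these genes. Correlations without hda19 were not computed. Outside the lists used here, the genes most like the mean profile of the 10, of 16916 ranked, were GAE6 and AT5G59250 (0.91 each), CYP96A4 and KT2 (0.89 each), TSB2, an enzyme of tryptophan synthesis (0.88), AVA-P1 and AT2G21830 (0.87 each) and CNGC15 (0.86). All of these correlations share the same 16 libraries.

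The other enzymes of the aliphatic route were read from a list of 21 genes in the table, of which 19 passed the filter on low values. In hda19, 12 of the 19 were lower and 1 higher, with a median log2 fold change of -0.30. The lower genes included 4 of 6 in chain elongation (IPMI1, an isopropylmalate isomerase subunit, -0.44, limma adjusted p = 0.00044; IMD3 -0.38, adjusted p = 0.00011), 5 of 7 in the core structure and 3 of 6 in side-chain modification. In arid14, 8 of the 19 were lower and 0 higher, and in rxt3, 7 were lower and 5 higher. In hda6, 3 were higher and 1 lower, in sant1234 4 higher and 0 lower, in esant12 4 higher and 2 lower, and in mbd124 0 higher and 1 lower. Between hda6 and hda19, 5 of 6 in chain elongation were higher in hda6 and 0 lower. The core structure had 6 of 7 higher and 0 lower there, and side-chain modification 3 of 6 higher and 1 lower. The shares of all genes called in each comparison are those given above for the 10 genes.

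Among core enzymes, UGT74B1, which adds glucose, fell in hda19 (-0.50, limma adjusted p = 0.0016), arid14 (-0.38, 0.0083) and rxt3 (-0.27, 0.035). SOT18, a sulfotransferase of the last core step, fell in the same 3 mutants (-0.30, -0.31 and -0.44). AT2G31790, annotated as a UDP-glycosyltransferase, fell most in arid14 (-0.71, adjusted p = 1.8e-06), and also in hda19, esant12 and rxt3. Side-chain oxidation showed the widest range: FMO GS-OX2, a monooxygenase that oxidises the sulfur of the side chain, fell in rxt3 (-1.22, adjusted p = 8.7e-07), hda19 (-1.13, 6.3e-06), esant12 (-1.04, 1.6e-05), arid14 (-0.57, 0.00092) and hda6 (-0.37, 0.02). FMO GS-OX1 fell in hda19, arid14 and rxt3, and FMO GS-OX3 in hda19 (-0.73) and arid14 (-0.50).

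Higher calls included several in chain elongation. IMD1, an isopropylmalate dehydrogenase, rose in rxt3 (0.36, limma adjusted p = 0.00011), esant12 (0.34, 0.00053), hda6 (0.26, 0.0036) and sant1234 (0.23, 0.0091). IPMI2 rose in hda6, sant1234 and rxt3 (0.38, 0.35 and 0.35), and IPMI1 in hda6, sant1234 and esant12 (0.24, 0.30 and 0.42). GSTU20, a glutathione transferase of the core list, rose in sant1234, esant12 and rxt3 (0.26, 0.28 and 0.39). AT2G25450, annotated as a 2-oxoglutarate-dependent oxygenase, rose in hda19 (0.49, adjusted p = 0.00036) and rxt3 (0.28). AOP3 did not pass the filter, and AOP2, annotated as a pseudogene, was not analysed here.

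Of 5 genes for transport and sulfate activation, GTR1, a glucosinolate transporter, fell in 6 mutants, most in arid14 (-0.97, limma adjusted p = 1.1e-06), whereas GTR2 rose in hda19 (0.59, adjusted p = 6.5e-05). AKN2, an adenosine phosphosulfate kinase, fell in hda6 and hda19 (-0.35 and -0.36) and rose in esant12 and rxt3 (0.56 and 0.25). Of the further regulators tested, MYC4, a partner of these MYB factors, fell in all 7 mutants, from -0.36 in esant12 to -0.64 in arid14. ATSDI1, which in Arabidopsis represses the route under sulfur shortage, fell in hda6 (-1.22, adjusted p = 0.0037), esant12 (-0.95, 0.014) and hda19 (-0.86, 0.022), as did AT1G04770 (-0.71, -0.94 and -0.61). Of the exon bases of GTR1, AT2G31790, IMD3 and AT1G04770, 17.0%, 18.6%, 15.1% and 27.4% overlap genes on the opposite strand, so their reads are uncertain to that extent.

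MYC2 and GSTF11 were listed at 0 in all 16 libraries. In TAIR10.1, 98.5% of the exon bases of MYC2 and 100% of those of GSTF11 overlap a gene on the opposite strand (AT1G32630 and AT3G03200). No level of either is read from these files. Of the 10 genes described here, 9 have no exon base in another gene, BCAT4 being the exception given above.

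**Figure D5:**
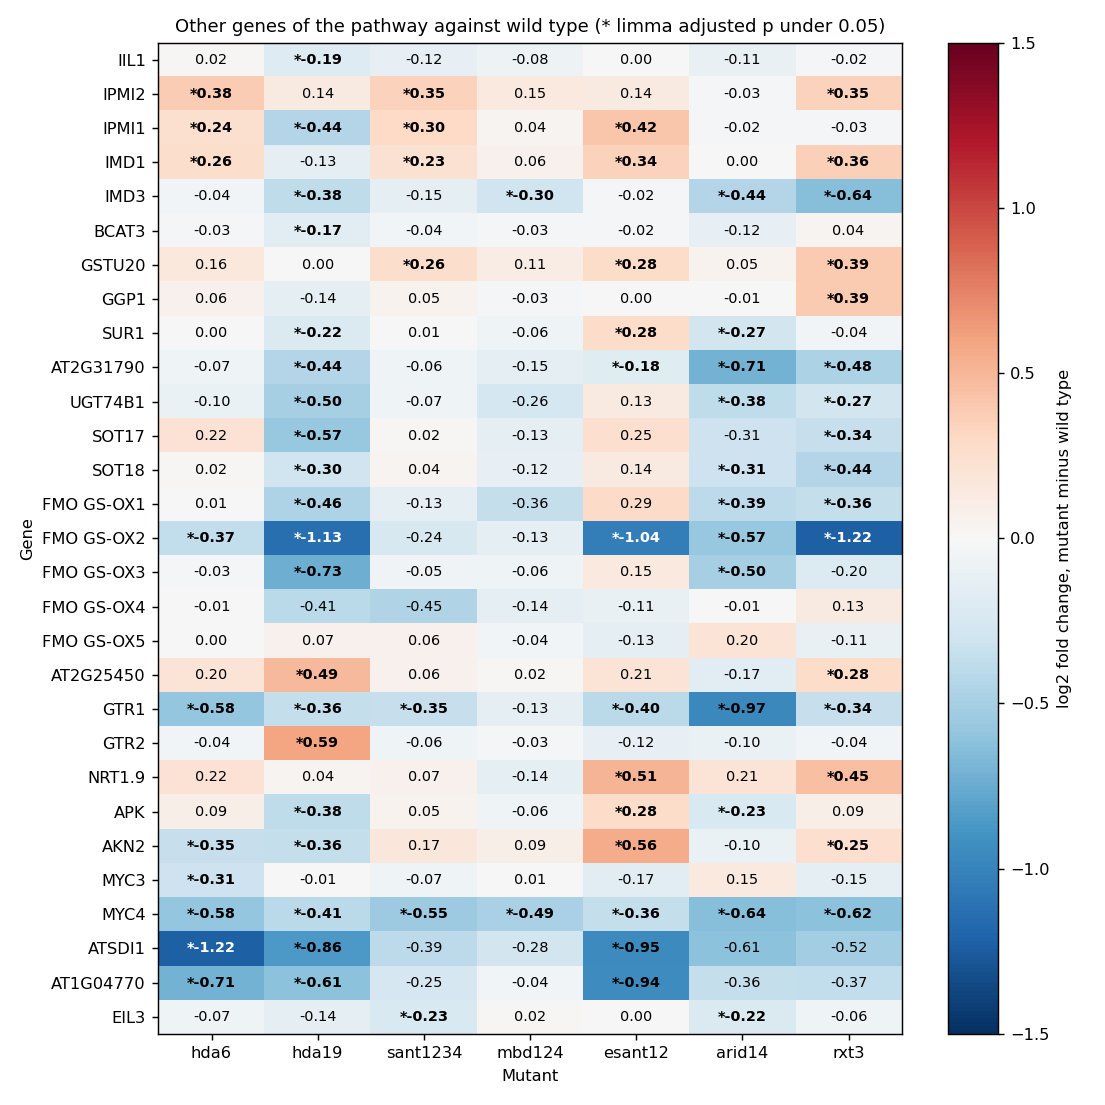
Heat map of log2 fold change against wild type for 29 other tested genes of the route (rows, in the order chain elongation, core structure, side chain, transport and sulfate activation, regulators) in the 7 mutants, with an asterisk for a limma adjusted p under 0.05. The MYC4 row is blue in all 7 columns, and FMO GS-OX2 reaches -1.22 in rxt3.

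The indole glucosinolates, made from tryptophan by related enzymes, served as the most similar group for comparison. Of 7 listed genes, all tested, MYB51, an activator of indole synthesis, rose in all 7 mutants, from 0.48 in arid14 (limma adjusted p = 0.012) to 1.31 in rxt3 (adjusted p = 3e-06). In hda19, 1 of the 7 was higher and 2 were lower (CYP79B3 by -0.59, adjusted p = 0.0051, and, chosen after its value was seen, CYP79B2 by -0.39, adjusted p = 0.028), against 0 and 6 of the 10 aliphatic genes. In esant12, 3 were higher and 1 lower, MYB122 (-1.17, adjusted p = 0.011). Of all tested genes, 14.0% were higher and 16.2% lower in hda19, and 11.5% and 14.3% in esant12. In arid14, 1 of the 7 was higher and 3 lower, and in rxt3 3 and 2. In hda6, sant1234 and mbd124, 1 was higher and 0 lower. Between hda6 and hda19, 4 of the 7 were higher in hda6 and 0 lower, with a median log2 difference of 0.33. The 10 aliphatic genes had 7 higher and 0 lower there, and all tested genes 12.7% and 11.1%. The shares of all genes in those comparisons are given above. Whether the 2 groups of genes differ in their response was not tested.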

How the data were processed

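RNA was measured in 16 libraries of single-end reads of 50 bp. Per the submitters' processing notes, reads were mapped to TAIR10 with HISAT2 2.1.0, counted with featureCounts and handled with edgeR; the counting options, including strand, are not given in the sources used here. The deposited signal values are normalised by the authors and are not whole numbers. All of the 520768 values (100%, relative tolerance 1e-06) matched edgeR's library-size adjustment of a whole read count, and the reads were recovered on that basis for depth and for the edgeR alternative. Normalised values of this kind carry no information on how much RNA a seedling held. At 19259579 to 19522197 reads per library, MYB76, with 7 to 65 reads, is the least precise of the 10 genes.

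Genes were tested in R 4.3.3 by limma 3.58.1, using its mean-variance trend, on log2 of the deposited signal after adding a pseudocount of 1. All 8 genotypes were fitted together, which gave 8 residual degrees of freedom beside 6.06 prior ones, over genes at 10 or more in at least 2 libraries (20846 genes, all 10 members included). P-values were adjusted by Benjamini and Hochberg over all tested genes in each comparison and called under 0.05. The procedure was also run on simulated counts, with changes set in hda6 only and a single spread for all genes. That run is no check of the calls reported here. The members, the other lists and the tests were chosen with earlier results of these data known. Besides the 10 members, genes were named from the first 3 per list and direction, ranked by the number of mutants that called them, then by size. Not all of these are named, and those left out include NRT1.9, APK, MYB34 and CYP83B1. Also named are the 8 genes outside the lists with a mean of at least 50 and the highest correlation with the members' mean profile. Other genes named in a sentence on a count were chosen after their values were seen.

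Alternatives were pseudocounts of 0.1 and 5, no filter and a filter at 50, median-of-ratios factors, fitting only the genotypes compared, blocking on replicate number, a minimum absolute log2 fold change of 1, edgeR 4.0.16 and DESeq2 1.42.0 on recovered reads, and each library left out. On recovered reads, edgeR called 6351 genes in hda19 and 4877 in hda6, where limma called 6297 and 4952. The median-of-ratios factors left these limma counts, and those of every other comparison, unchanged. Coordinates, exons and sequences are from RefSeq TAIR10.1, in which all 10 identifiers were found. Figures were drawn with matplotlib 3.10.9.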

Additional observations from a re-analysis of the deposited data

Results flagged for a closer look

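Of the 10 genes, 4 were called higher than wild type in some mutants and lower in others, and the mutants concerned were compared directly (limma adjusted p-values over all genes). These pairs were chosen by their calls in the same libraries and the same fit. A difference between them was therefore nearly fixed by the choice, and the p-values are no separate evidence for it. The wild-type means do not enter these differences, but the wild-type libraries enter the shared estimate of the spread. MYB76 differed by 2.65 on the log2 scale between esant12 and hda19 (SE 0.29, adjusted p = 1.5e-05), with means of 60.1 and 8.82 normalised reads. BCAT4 was higher than in hda19 by 0.53 in hda6 (adjusted p = 1.3e-05), by 0.34 in sant1234 (0.00074) and by 0.55 in rxt3 (1.2e-05).

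MAM3 was higher than in rxt3 by 0.54 in hda6 (adjusted p = 0.00017) and by 0.53 in sant1234 (0.00027), both by limma. CYP79F1 was higher than in hda19 by 1.16 in hda6 (1.1e-07) and by 1.16 in esant12 (1.4e-07), and higher than in arid14 by 0.65 in hda6 (2.4e-05) and by 0.64 in esant12 (2.5e-05). No group had enough libraries for a single one to be judged as standing apart.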

How the results depend on the processing

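Of the 27 calls of a member against wild type, 10 were kept under all 13 alternatives without a fold threshold, and 17 were lost without at least 1 library. No direction reversed. Requiring a log2 fold change of at least 1 left 0 genes in hda6, 2 in hda19, 0 in sant1234, 1 in esant12, 0 in arid14, 0 in rxt3 and 3 between hda6 and hda19. In sant1234 the number of called members went from 4 to 2 with no filter and to 1 with DESeq2; the cause was not tested. With 1 library left out, which leaves a lone sample assumed to vary like the others, the number called ran from 1 to 3 in hda6 (4 with all), 4 to 6 in hda19 (6), 0 to 1 in sant1234 (4), 0 to 2 in esant12 (4), 2 to 4 in arid14 (3), 3 to 6 in rxt3 (6), 6 to 7 between hda6 and hda19 (7) and 9 to 10 across the 8 genotypes (10), and was 0 each time in mbd124. The deviations of libraries of 1 replicate number were weakly correlated (from -0.09 to 0.12 over 28 pairs of genotypes, 3 over 0.1). Correlations of this size cannot decide whether the replicate numbers pair the samples. With a replicate block the number called was 5 in hda6, 6 in hda19, 5 in sant1234, 0 in mbd124, 4 in esant12, 3 in arid14, 6 in rxt3 and 7 between hda6 and hda19. The block also raised limma's counts over all genes in every comparison, from 4952 to 5249 in hda6 and from 6297 to 6574 in hda19. Over all genes, DESeq2 called 2900 in hda6, 4150 in hda19, 2565 in sant1234, 3415 in esant12 and 2996 between hda6 and hda19, where limma called 4952, 6297, 4134, 5392 and 4972. With 1 library left out, limma's lowest counts over all genes were 2364 in hda6 (without hda6 replicate 2), 4033 in hda19 (without hda19 replicate 2), 2147 in sant1234 (without sant1234 replicate 2), 783 in mbd124 (without mbd124 replicate 2; 2084 with all), 3327 in esant12 (without esant12 replicate 1) and 2838 between hda6 and hda19 (without hda6 replicate 1). Depth limits MYB76 most, with 7 to 65 reads per library.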
